A study of Canis lupus familiaris with 6 samples.

Results

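Interferon-stimulated genes were followed in whole blood of Beagle dogs as a fixed list of 40 gene symbols, and every row of the expression table that carried one of these symbols was taken. The list matched 34 rows with 33 symbols, out of 31512 gene rows in all, and OASL had 2 rows. The symbols IFIH1, IRF7, IRF9, CMPK2, MX1, USP18 and HERC5 matched no row and were not analysed here by symbol. Of the 34 rows, 30 averaged 1 FPKM or more across the 6 dogs and entered the test, while RSAD2, IFIT1, IFIT2 and IFI6 were below that level. FPKM is the number of fragments on a gene divided by the gene length and the library size. It can be compared between genes of a library, and between dogs only as far as the scaling of the libraries holds.

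The libraries came from whole blood on day 30 of feeding, 1 from each of 3 control dogs (the controls) and 3 CPP-Se dogs. All were healthy Beagle dogs aged 1.5 years, drawn from the 12 dogs of the study and kept on the same maintenance food. The control dogs received 30 g of a snack without CPP-Se, and the CPP-Se dogs received 30 g of that snack with 0.03% CPP-Se, in which selenium is chelated by phosphopeptides from casein. Neither treatment included an interferon or an infection.

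Type I interferons are cytokines that cells release when they sense viral nucleic acid. They bind a receptor whose kinases JAK1 and TYK2 phosphorylate transcription factors such as STAT2, which with IRF9 bind the promoters of interferon-stimulated genes. The products of the genes sense viral RNA, degrade it, block its translation or hold virus particles at the cell surface, and in blood nearly all leukocytes can express them.

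The recovered reads on genes were 6598173 to 8067034 per dog. In CPP-Se replicate 2, hemoglobin genes held 36.6% of these reads, against 48.7% to 55.9% in the other dogs, and the library size implied by its FPKM was 1.65 times its reads on genes, the highest of the 6. In 6 of 8 lists of blood cell markers the summed FPKM did not overlap between the groups. The summed FPKM of 9 monocyte markers was 855 to 1000.7 in the control dogs and 411 to 478 in the CPP-Se dogs, and that of 9 neutrophil markers was 2413 to 3202 and 1841 to 2363. For 9 markers of NK and cytotoxic cells it was 12.2 to 23.8 and 37.6 to 60.04. For 5 markers of plasmacytoid dendritic cells, known as strong producers of type I interferon, it was 4.23 to 4.97 and 8.75 to 13.4. GZMB was in both of these lists and was the highest plasmacytoid dendritic cell marker. Without it that sum was 1.14 to 3.78 and 5.38 to 10.1, and 3 of the 5 rows averaged 1 FPKM or more. For 9 B cell markers the sum was 282 to 404 and 430 to 471. For 11 T cell markers it was 1022 to 1352 and 860 to 996, but CD4 alone set that direction, and the sum of the other 10 was 96.1 to 173 and 200.3 to 271. Without CSF3R, the highest of the neutrophil markers, the neutrophil sums overlapped (1329 to 2290 and 1328 to 1905), while the monocyte, NK and cytotoxic cell, plasmacytoid dendritic cell and B cell lists stayed apart in the same direction without their highest marker. The sums of the red cell and platelet markers overlapped, at 6091 to 13215 and 6543 to 11332 and at 906 to 1869 and 612 to 2140. No marker of the 8 lists was at 0 in all dogs and none passed the limma threshold described next, and the part of cell composition in the values below was not tested. In whole blood, fewer cells of a type and less RNA per cell cannot be told apart.

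None of the 30 interferon-stimulated genes tested passed the threshold for a difference between CPP-Se and control dogs (0 higher and 0 lower). A call needed both a 1.5-fold difference on the log2(FPKM + 1) scale and an adjusted p below 0.05 (limma, two-sided, Benjamini-Hochberg adjustment over 9847 genes), which 0.0305% of all genes tested met. The lowest adjusted p of a member was 0.276, for EIF2AK2. At an unadjusted p under 0.05, 0 members were higher in CPP-Se dogs, against 6.87% of all genes, and 2 members, EIF2AK2 and OAS2, were lower, against 9.1% of all genes. The 3 CPP-Se dogs lay above all 3 control dogs in 0 members, against 10.4% of all genes, and below them in 1 member, IRF1, against 12.6%. On the recovered reads, limma-voom called 0 members and 0.0102% of all genes, voom with sample quality weights called 0 members and 1.58%, and a negative binomial model called 0 members and 8.35%.

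The log2 fold changes of the members lay mostly below 0. They were negative in 20 of the 30 members (66.7%), against 50.4% of all genes tested, with a median of -0.20 against -0.00433. The extremes were -1.31 for OAS2 and 0.41 for IFIT5. When CPP-Se replicate 1 was left out, the median was 0.0081 and 15 of 30 were negative, and when control replicate 1 was left out they were -0.031 and 18 of 30. With libraries scaled to a common sum, 18 of 30 were negative, with a median of -0.057 against 0.13 for all genes. The 95% interval of the difference held 0 in 28 members and lay wholly within a 1.5-fold change in either direction in 2 members, BST2 and one of the OASL rows. For most members these 6 dogs could therefore not separate the absence of a change from a change of 1.5-fold.

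**Figure D1:**
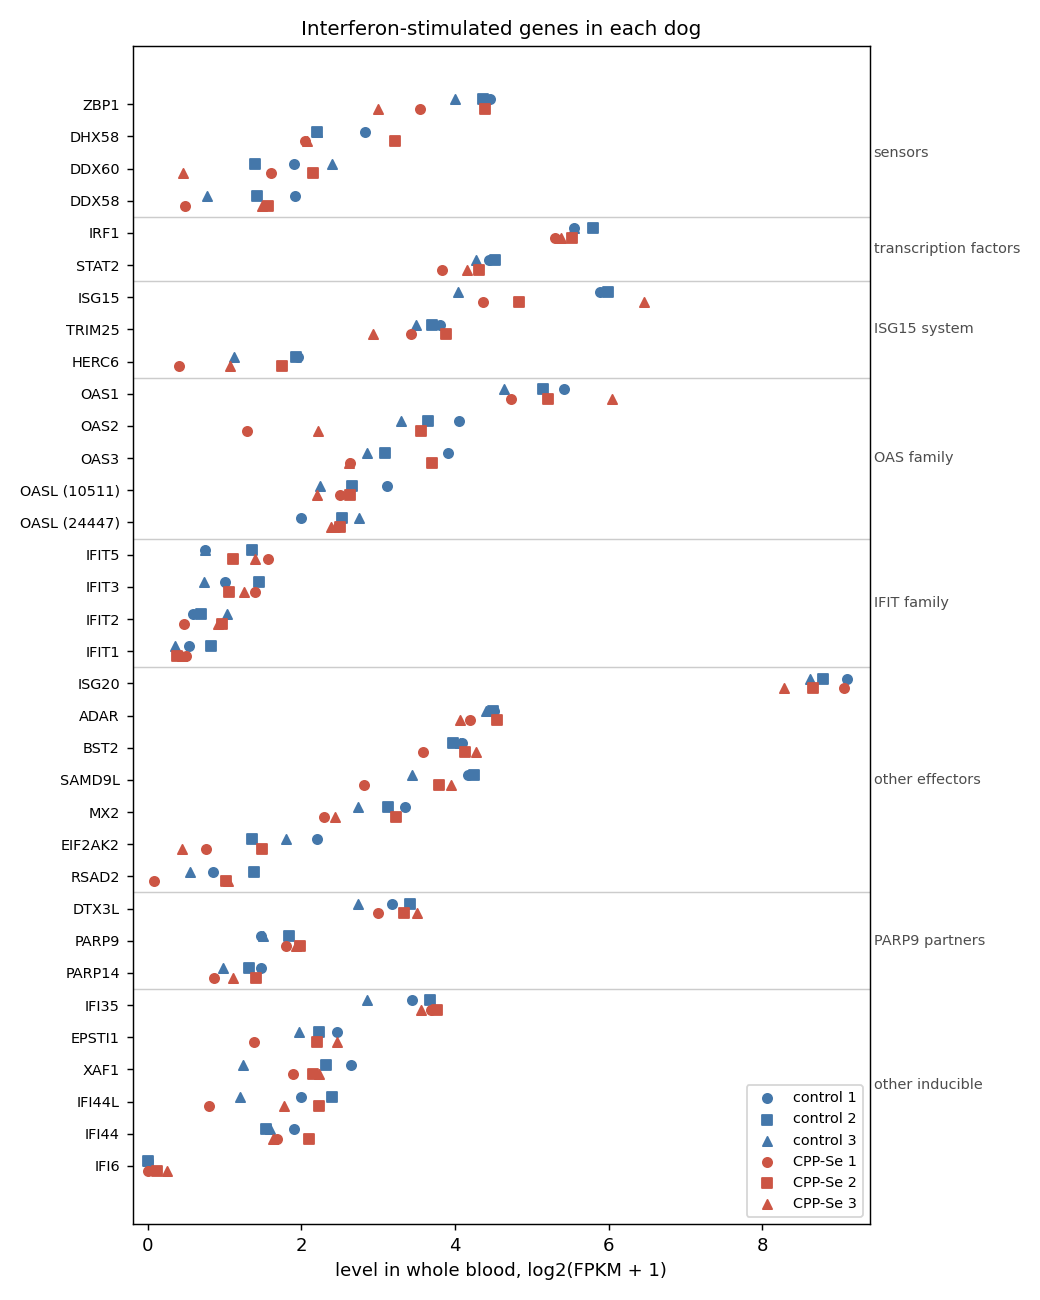
Level of each interferon-stimulated gene in each dog, as log2(FPKM + 1) on the horizontal axis, with genes grouped by role; blue symbols are the 3 control dogs and red symbols the 3 CPP-Se dogs. The groups overlap in all rows but IRF1, ISG20 has the highest level, and the red circle of CPP-Se replicate 1 is often leftmost.

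**Figure D2:**
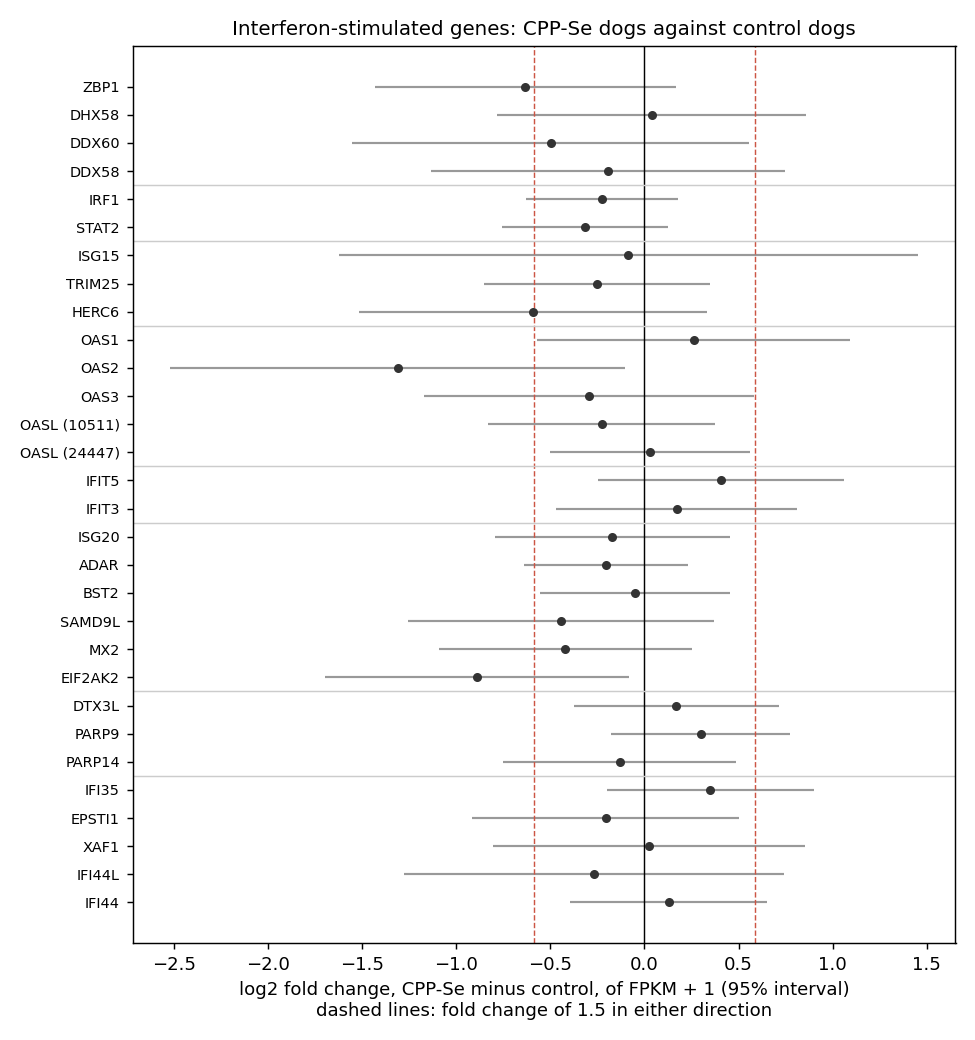
Fitted log2 fold change of each tested member, CPP-Se minus control, with its 95% interval from limma; dashed lines mark a 1.5-fold change. The values run from -1.31 for OAS2 to 0.41 for IFIT5, and 28 of the 30 intervals hold 0.

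Transcription factors of the response had a median residual SD of 0.160 on the log2 scale, the lowest of the 8 roles, and neither passed the test. IRF1, a transcription factor that binds promoters of interferon-stimulated genes, had 46.0, 54.4 and 45.6 FPKM in the controls against 38.5, 45.1 and 40.7 FPKM under CPP-Se. Each CPP-Se dog lay below each control dog, though the highest CPP-Se dog (45.1) and the lowest control dog (45.6) were close. The means were 48.7 ± 4.93 and 41.4 ± 3.37 FPKM (SD, n = 3 dogs each), with a log2 fold change of -0.22 (SE 0.17, adjusted p = 0.573 by limma) that was -0.14 without control replicate 2. Over all alternatives it ran from -0.29 (without CPP-Se replicate 2) to -0.071 (libraries scaled to a common sum). STAT2, which acts downstream of the type I receptor, had 20.7, 21.9 and 18.4 FPKM in the controls against 13.2, 18.8 and 16.8 FPKM under CPP-Se. Only the CPP-Se dog at 18.8 reached into the control range, and the log2 fold change was -0.32 (SE 0.19, adjusted p = 0.466 by limma) and -0.18 without CPP-Se replicate 1.

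Of the 4 sensors of viral nucleic acid tested, 3 had a log2 fold change below 0 and none passed. ZBP1, which binds nucleic acid in the Z conformation and triggers cell death, had 20.9, 19.5 and 15.0 FPKM in the controls against 10.6, 20.0 and 6.97 FPKM under CPP-Se. CPP-Se replicates 1 and 3 lay below the control range and CPP-Se replicate 2 within it. The log2 fold change was -0.63 (SE 0.34, adjusted p = 0.417 by limma), and it was -1.01 without CPP-Se replicate 2 (adjusted p = 0.163) and -0.31 without CPP-Se replicate 3 (adjusted p = 0.630). DDX60, a helicase linked to signalling by the RNA sensor RIG-I, had 2.75, 1.63 and 4.26 FPKM in the controls against 2.04, 3.44 and 0.369 FPKM under CPP-Se, with a log2 fold change of -0.50 (SE 0.46, adjusted p = 0.631). Its highest dog was 11.5 times its lowest, the widest range of the 30 members, and the low value of CPP-Se replicate 3 came from 13 reads. For DDX60 it was -0.023 without that dog and -0.87 without CPP-Se replicate 2, and it was -0.75 and -0.25 without control replicates 2 and 3. DDX58, which encodes RIG-I itself, ran from 0.392 to 2.76 FPKM, and DHX58, which encodes the related helicase LGP2, from 3.14 to 8.30 FPKM, both with overlapping groups.

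The oligoadenylate synthetases OAS1, OAS2 and OAS3 make a short adenylate chain that activates the ribonuclease RNase L. With the 2 rows of OASL, the signs of the family's 5 log2 fold changes were mixed, with 2 above 0 and 3 below. OAS1 had 41.9, 34.2 and 23.9 FPKM in the controls against 25.6, 35.9 and 65.2 FPKM under CPP-Se. Its highest value was that of CPP-Se replicate 3, and the groups overlapped (33.4 ± 9.05 and 42.2 ± 20.54 FPKM, SD, n = 3 dogs each; log2 fold change 0.26, SE 0.36, adjusted p = 0.764 by limma). For OAS1 it was -0.098 without CPP-Se replicate 3 and 0.56 without CPP-Se replicate 1. OAS2 had 15.6, 11.5 and 8.85 FPKM in the controls against 1.45, 10.8 and 3.65 FPKM under CPP-Se. The lowest values were those of CPP-Se replicates 1 and 3, from 22 and 53 reads against 169 to 253 in the control dogs, while CPP-Se replicate 2 was within the control range.

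Among all members OAS2 had the largest fitted difference on the log2(FPKM + 1) scale, with means of 11.97 ± 3.40 and 5.28 ± 4.87 FPKM (SD, n = 3 dogs each). Its log2 fold change was -1.31 (SE 0.52, 95% interval -2.52 to -0.10, adjusted p = 0.281 by limma with Benjamini-Hochberg adjustment). The log2 fold change of OAS2 was -0.78 without CPP-Se replicate 1 (adjusted p = 0.485) and -1.91 without CPP-Se replicate 2 (adjusted p = 0.128). Its adjusted p was 0.0954 by voom with sample quality weights, the lowest of any member under any alternative. OAS3 had 14.0, 7.52 and 6.21 FPKM in the controls against 5.22, 12.01 and 5.16 FPKM under CPP-Se, and its groups overlapped (log2 fold change -0.30, adjusted p = 0.746).

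OAS1, OAS3 and OAS2 lie side by side on chromosome 26, at 10385447 to 10396733, 10404414 to 10423039 and 10432042 to 10449009, in the dog genome of Ensembl release 100. The ratio of OAS1 to OAS2 FPKM, chosen after the values were seen and therefore given without a test, was 2.69, 2.98 and 2.70 in the controls against 17.7, 3.34 and 17.9 under CPP-Se. The ratio of OAS1 to OAS3 FPKM was 2.99, 4.55 and 3.85 in the controls against 4.89, 2.99 and 12.6 under CPP-Se. CPP-Se replicates 1 and 3 thus stood apart in the first ratio and CPP-Se replicate 3 alone in the second. The 2 rows of OASL, an OAS-like gene that enhances RIG-I signalling, are neighbours on the same chromosome. They ranged from 3.61 to 7.69 FPKM and from 2.99 to 5.74 FPKM, and reads could have been split between these copies.

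**Figure D3:**
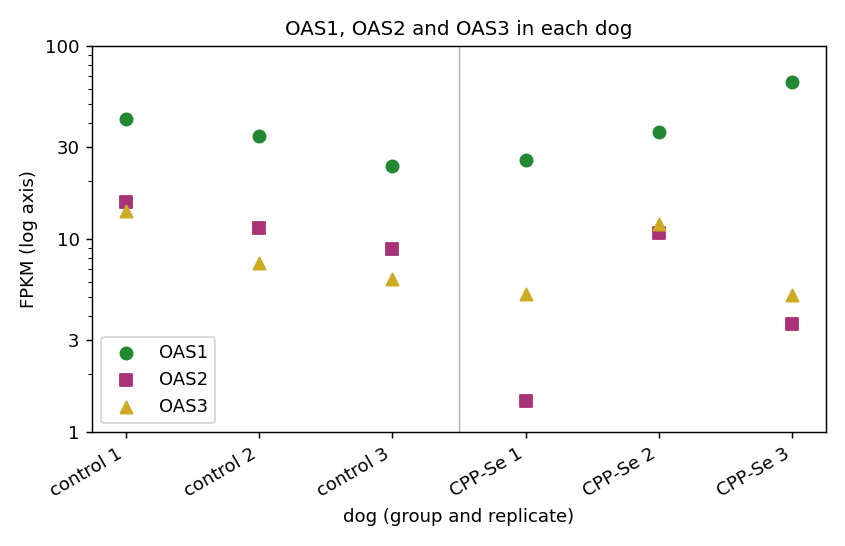
FPKM of OAS1 (circles), OAS2 (squares) and OAS3 (triangles) in each of the 6 dogs on a log axis; the vertical line separates control from CPP-Se dogs. OAS1 is highest in every dog, and OAS2 is at 1.45 and 3.65 FPKM in CPP-Se replicates 1 and 3.

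ISG15, a ubiquitin-like protein that is joined to other proteins during the response, varied widely among dogs. It had 58.4, 62.5 and 15.5 FPKM in the controls against 19.7, 27.5 and 87.3 FPKM under CPP-Se. The lowest value was that of a control dog and the highest that of a CPP-Se dog, and the highest dog was 5.64 times the lowest. The means were almost equal, 45.5 ± 26.05 and 44.8 ± 37.0 FPKM (SD, n = 3 dogs each), with a log2 fold change of -0.09 (SE 0.66, 95% interval -1.62 to 1.45, adjusted p = 0.963 by limma), an interval that leaves room for a change in either direction. With a dog left out it ran from -0.72 (without control replicate 3) to 0.34 (without CPP-Se replicate 1). The ISG15 row spans 56236318 to 56404695 on chromosome 5 and overlaps 10 other genes. HERC6, a ligase of the HERC family, had 2.88, 2.81 and 1.17 FPKM in the controls against 0.321, 2.35 and 1.10 FPKM under CPP-Se (log2 fold change -0.59, SE 0.40, adjusted p = 0.515). Its lowest value, that of CPP-Se replicate 1, came from 7 reads, and the log2 fold change was -0.26 without that dog and -0.93 without CPP-Se replicate 2. TRIM25, a ubiquitin ligase that acts on RIG-I, ran from 6.62 to 13.7 FPKM, and both of these values were those of CPP-Se dogs.

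Among the other antiviral effectors, all 6 tested had a log2 fold change below 0 in the fit reported and none passed. ISG20, an exonuclease that degrades RNA, had the highest level of all members, at 551, 443 and 392 FPKM in the controls against 533, 404 and 312 FPKM under CPP-Se. The groups overlapped (462 ± 81.5 and 416 ± 111 FPKM, SD, n = 3 dogs each; log2 fold change -0.17, SE 0.27, adjusted p = 0.802 by limma), and the log2 fold change was 0.021 without CPP-Se replicate 3 and -0.37 without CPP-Se replicate 1. ADAR, which edits adenosine in double-stranded RNA, had 21.8, 21.6 and 20.2 FPKM in the controls against 17.3, 22.3 and 15.7 FPKM under CPP-Se. CPP-Se replicate 2 was the highest of all and the other CPP-Se dogs were the lowest (log2 fold change -0.20, SE 0.19, adjusted p = 0.630). It was -0.34 without CPP-Se replicate 2 and -0.10 without CPP-Se replicate 3.

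EIF2AK2 encodes PKR, the kinase that halts translation when it binds double-stranded RNA. It had 3.59, 1.57 and 2.49 FPKM in the controls against 0.695, 1.79 and 0.364 FPKM under CPP-Se. CPP-Se replicate 2 lay within the control range, and the low values of the other CPP-Se dogs came from 8 and 4 reads. The log2 fold change of EIF2AK2 was -0.89 (SE 0.35, 95% interval -1.70 to -0.08, adjusted p = 0.276 by limma with Benjamini-Hochberg adjustment), and the negative binomial model gave an adjusted p of 0.108. That model, which adds no pseudocount, gave EIF2AK2 a log2 fold change of -1.34, beyond the -1.16 of OAS2. Over all alternatives EIF2AK2 ran from -1.58 (voom with sample quality weights) to -0.67 (without CPP-Se replicate 3).

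MX2, a dynamin-like GTPase that restricts viruses, had 9.21, 7.72 and 5.69 FPKM in the controls against 3.90, 8.35 and 4.42 FPKM under CPP-Se. The log2 fold change of MX2 was -0.42 (SE 0.29, adjusted p = 0.525) and it was -0.71 without CPP-Se replicate 2 and -0.24 without CPP-Se replicate 1. SAMD9L, which restricts viral translation, had 17.1, 18.02 and 9.88 FPKM in the controls against 6.01, 12.8 and 14.4 FPKM under CPP-Se. CPP-Se replicate 1 was the only dog outside the control range, and without it the log2 fold change went from -0.44 (SE 0.35, adjusted p = 0.582) to -0.09, whereas without control replicate 3 it was -0.70. BST2, known as tetherin for holding virus particles at the membrane, ran from 10.9 to 18.4 FPKM, and both extremes were CPP-Se dogs.

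In 3 roles the medians of the log2 fold changes were above 0, at 0.29, 0.17 and 0.026. IFIT5 and IFIT3, of the family that binds foreign RNA ends, had the highest of these medians, but both were low. IFIT5 had 0.669, 1.56 and 0.671 FPKM in the controls against 1.94, 1.15 and 1.63 FPKM under CPP-Se, with a log2 fold change of 0.41 (SE 0.28, adjusted p = 0.529 by limma). Control replicates 1 and 3 were the lowest, and control replicate 2, without which the log2 fold change was 0.61, lay inside the CPP-Se range. PARP9 and its partners came next. PARP9, which forms a complex with the ubiquitin ligase DTX3L, had 1.78, 2.58 and 1.82 FPKM in the controls against 2.48, 2.96 and 2.80 FPKM under CPP-Se (log2 fold change 0.30, SE 0.21, adjusted p = 0.523).

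DTX3L had 8.08, 9.64 and 5.68 FPKM in the controls against 6.99, 9.12 and 10.3 FPKM under CPP-Se (log2 fold change 0.17, SE 0.24, adjusted p = 0.768 by limma), and the log2 fold change was -0.016 without control replicate 3 and 0.32 without control replicate 2. The PARP9 and DTX3L genes overlap on opposite strands. Since the use of strand in counting is not given in the sources used here, how reads in the overlap were assigned is not known. EIF2AK2 and DDX58 also overlap another annotated gene on the opposite strand, so their values carry the same uncertainty. BST2 overlaps another gene on the same strand, and IFIT1 and IFIT3 overlap each other on the same strand. There strand could not separate the reads, and how they were assigned is not known either. PARP14, a related ADP-ribosyltransferase, ran from 0.822 to 1.79 FPKM.

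IFI35, an interferon-induced protein that partners with NMI, led the remaining inducible genes, of which 3 had a log2 fold change above 0 and 2 below. Its values were 9.81, 11.8 and 6.25 FPKM in the controls against 11.9, 12.6 and 10.8 FPKM under CPP-Se. Control replicate 2 lay inside the CPP-Se range (log2 fold change 0.35, SE 0.24, adjusted p = 0.520 by limma), and the log2 fold change was 0.12 without control replicate 3 and 0.53 without control replicate 2. XAF1, EPSTI1, IFI44 and IFI44L were at 0.737 to 5.26 FPKM, with log2 fold changes from -0.27 to 0.13, and in each the groups overlapped.

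The 4 members below 1 FPKM on average rested on few reads. RSAD2, which encodes the antiviral enzyme viperin, had 16, 30 and 11 reads in the controls against 1, 40 and 19 reads under CPP-Se. IFIT1 had 5 to 11 reads per dog and IFIT2 5 to 26. IFI6 had 2 reads in each of CPP-Se replicates 2 and 3 and 0 in the other 4 dogs, all under the floor of 3 reads that a count of 0 allows, so no fold is given. These counts cover counting error only, since PCR reads without molecular identifiers are not independent molecules.

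The difference between the group means was smaller than the spread between dogs of a group. The mean of log2(FPKM + 1) over the 30 tested members was 3.30, 3.20 and 2.81 in the controls against 2.65, 3.21 and 2.89 under CPP-Se, that is 3.10 ± 0.259 and 2.92 ± 0.284 (SD, n = 3 dogs each), while over all genes tested it was 2.95 to 3.02 in each dog. Control replicate 1 held the highest value of 11 of the 30 members, against 13.3% of all genes, and CPP-Se replicate 1 the lowest value of 12, against 19.6%. CPP-Se replicate 1 was highest in 1 member, against 23.9% of all genes. CPP-Se replicate 1 was below the range of the control dogs in 17 of the 30 members, against 33.1% of all genes, and above it in 2, against 33.7%. In CPP-Se replicate 2, 1 member lay below the control range and 7 above it, against 31.8% and 27.0% of all genes. In CPP-Se replicate 3, 14 members lay below it and 7 above, against 31.4% and 31.6%. Across members, the highest dog was a median of 2.62 times the lowest, against 2.21 for the 9456 tested genes above 0 in every dog, and the median residual SD was 0.386 against 0.308 on the log2 scale.

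**Figure D4:**
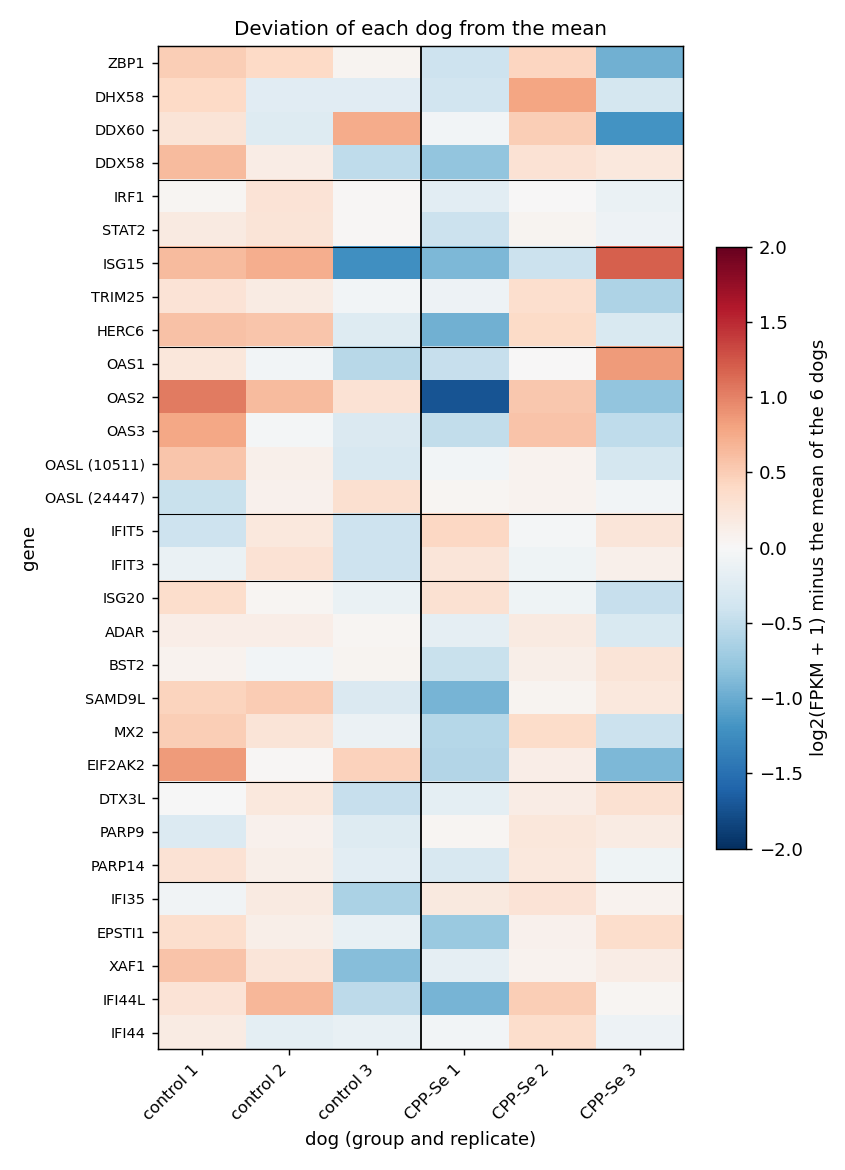
Deviation of each dog from the mean of the 6 dogs for each tested member, in log2(FPKM + 1), with red above and blue below; the vertical line separates control from CPP-Se dogs. The column of control replicate 1 is mostly red and that of CPP-Se replicate 1 mostly blue, while CPP-Se replicate 3 combines the highest ISG15 and OAS1 with the lowest DDX60 and EIF2AK2.

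Some members varied together from dog to dog. Over the 435 pairs of tested members, the Pearson correlation of log2(FPKM + 1) over the 6 dogs had a median of 0.348, and 11.03% of pairs exceeded 0.8, against 3.91% of pairs of all genes tested. The closest pair was ADAR and ZBP1 (r = 0.990), followed by ZBP1 and TRIM25 (r = 0.966) and MX2 and HERC6 (r = 0.950). MX2 had the highest median correlation with the other members (0.714), whereas one OASL row (-0.341), IFIT5 (-0.333) and IFIT3 (-0.134) ran against them. These are descriptions over 6 points that share libraries and scaling and include the group difference.

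The genes that produce, carry and restrain the interferon signal, with 10 rows of genes induced mainly by interferon gamma, were taken as a second list. It had 41 rows, of which 29 were tested. None was called by limma (0 higher and 0 lower), and the negative binomial model called 2, SOCS1 and TLR9, both higher, where 8.35% of all genes were called. The log2 fold change was above 0 in 17 and below 0 in 12. In the 6 tested genes induced mainly by interferon gamma, it was above 0 in 5 and below 0 in 1, with a median of 0.30. Of the ligands, IFNB1, IFNA7 and IFNK were at 0 in every dog, and IFNG had 4 reads in CPP-Se replicate 1 and 0 in the others.

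In 2 tested genes of this second list, TLR9 and SOCS1, all CPP-Se dogs lay above all control dogs, and in 3, STING1, IFNGR1 and MYD88, they lay below. These 2 and 3 of 29 genes stand beside 10.4% and 12.6% of all genes tested. TLR9, a receptor for unmethylated CpG DNA, had 0.518, 0.554 and 0.659 FPKM in the controls against 1.47, 2.32 and 1.11 FPKM under CPP-Se (log2 fold change 0.71, SE 0.27, limma adjusted p = 0.270, negative binomial adjusted p = 0.0122). The negative binomial model, which adds no pseudocount, gave TLR9 a log2 fold change of 1.52. TLR9 is also one of the plasmacytoid dendritic cell markers. Its own values are thus part of that sum, which was higher in the CPP-Se dogs. The B cell and the NK and cytotoxic cell sums were higher too and the monocyte sum lower, and the part of cell composition was not tested. SOCS1, which inhibits JAK kinases, had 3.70, 1.85 and 5.65 FPKM in the controls against 27.1, 5.68 and 6.60 FPKM under CPP-Se. CPP-Se replicate 1 stood far above the other dogs, and the log2 fold change went from 1.33 (SE 0.56, limma adjusted p = 0.303, negative binomial adjusted p = 0.0498) to 0.67 without it.

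STING1, the adaptor that relays the sensing of cytosolic DNA, had 14.0, 11.6 and 14.6 FPKM in the controls against 10.2, 10.8 and 4.69 FPKM under CPP-Se (log2 fold change -0.66, SE 0.30, limma adjusted p = 0.333, negative binomial adjusted p = 0.168). Without CPP-Se replicate 3 it was -0.32. IFNGR1, a chain of the interferon gamma receptor, had 32.7, 40.6 and 35.2 FPKM in the controls against 22.4, 28.4 and 25.1 FPKM under CPP-Se (log2 fold change -0.50, limma adjusted p = 0.258). Its negative binomial adjusted p was 0.0458, with a fold change short of 1.5. MYD88, an adaptor of Toll-like receptors, had 125, 110 and 130 FPKM in the controls against 76.8, 104 and 78.4 FPKM under CPP-Se (log2 fold change -0.50, limma adjusted p = 0.285, negative binomial adjusted p = 0.0713). The summed FPKM of the monocyte markers was lower in the same dogs, and its part in these values was not tested.

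**Figure D5:**
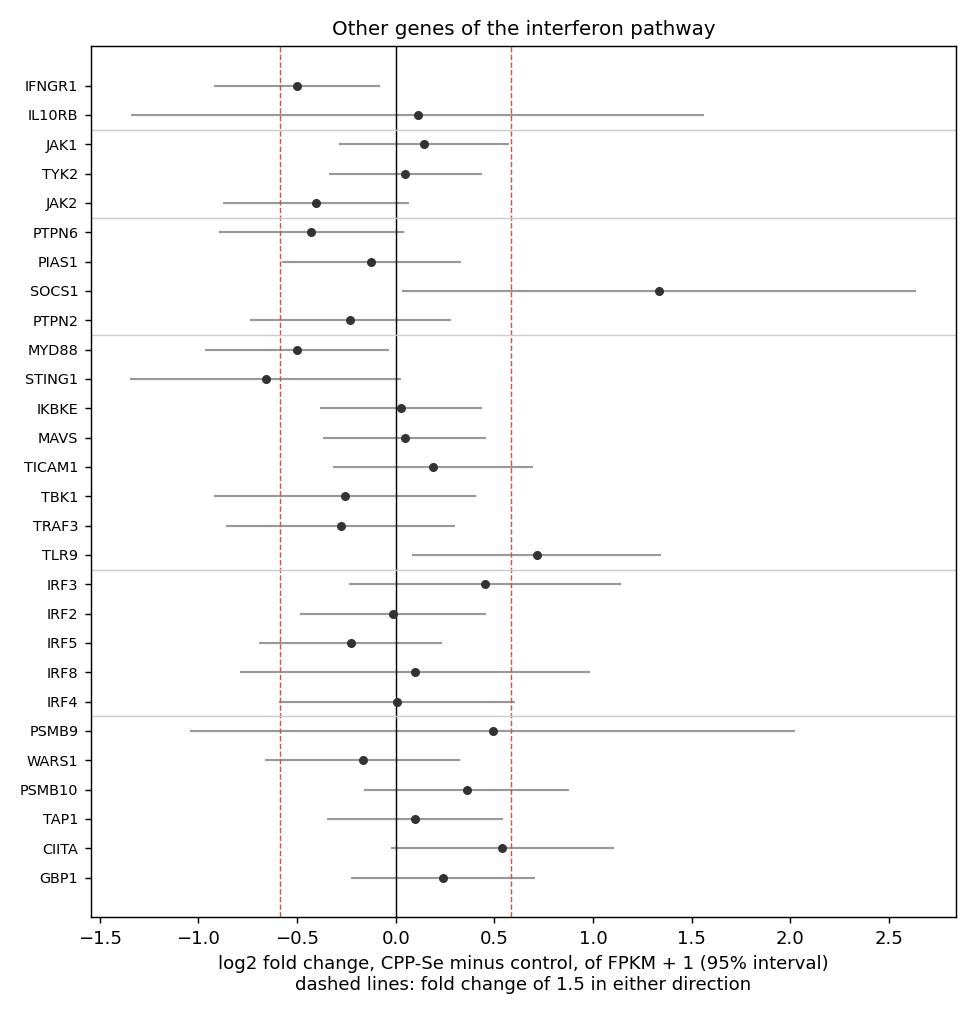
Fitted log2 fold change of tested genes of the second list, CPP-Se minus control, with its 95% interval from limma; dashed lines mark a 1.5-fold change. SOCS1 (1.33) and TLR9 (0.71) lie farthest to the right and STING1 (-0.66) farthest to the left, and none passed the threshold after adjustment.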

How the data were processed

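Per the labels, 1 whole blood library per dog was sequenced in 3 control and 3 CPP-Se dogs. The authors enriched poly-A mRNA, aligned reads (HISAT2 2.0.5, Ensembl release 100 of the dog) and deposited FPKM per gene; the submitters' processing notes also name CASAVA 2.19, fastp 0.19.7 and featureCounts 1.5.0-p3. The library size behind the FPKM and the use of strand are not given in the sources used here. Groups and replicate numbers came from the sample labels.

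FPKM times gene length gave whole reads for 100% of genes, within a tolerance of 0.01 read. Genes averaging 1 FPKM or more were fitted on log2(FPKM + 1), which understates changes of low genes, with limma 3.58.1 in R 4.3.3 (eBayes with an intensity trend, Benjamini-Hochberg adjustment). A pseudocount of 0.1, other filters, scalings, weights and count models, the replicate number as a block and each dog left out were the alternatives. Scripts were tested on simulated data.

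The members and lists were chosen with earlier results of these data known. Values per dog are given for members without overlap, the 10 largest differences, the 5 highest levels and the leading members of each role. Some other members are added beside them for context, chosen after their values were seen. The second list is described by its counts and the genes without overlap, and 1 tested gene counted in it is not reported here.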

Additional observations from a re-analysis of the deposited data

How the results depend on the processing

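No alternative called any of the 30 interferon-stimulated genes. The number of all genes called, 3 in the fit reported, was 12 with libraries scaled to a common sum, 1 with a minimum mean of 5 FPKM, 0 without a filter, 0 with a pseudocount of 0.1, 1 by voom, 156 by voom with sample quality weights and 822 by the negative binomial model, and 0 to 14 with a dog left out (14 without CPP-Se replicate 2). The negative binomial model called 2 genes of the second list and the other alternatives 0. The cause of these shifts was not tested. The median log2 fold change of the members was -0.36 to -0.06 over the other alternatives and -0.31 to 0.01 with a dog left out; with a common sum it was -0.06 beside 0.13 for all genes.

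Of the 335 values of the named members under the alternatives, 11 changed sign. ISG15 was at 0.067 with a common sum, 0.057 with a common sum without hemoglobin, 0.34 without CPP-Se replicate 1, 0.11 without CPP-Se replicate 2, 0.21 without control replicate 1 and 0.26 without control replicate 2 (-0.72 to 0.34 with a dog left out). ISG20 was at 0.12 after quantile scaling and 0.021 without CPP-Se replicate 3 (-0.37 to 0.021 with a dog left out), OAS1 at -0.052 by voom with sample quality weights and -0.098 without CPP-Se replicate 3 (-0.098 to 0.56), and DTX3L at -0.016 without control replicate 3 (-0.016 to 0.32).

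Nothing in the labels pairs dogs of the same number, and the deviations of same-numbered dogs correlated at 0.0165, -0.0900 and -0.0433. Those of differently numbered dogs correlated at -0.0783 to 0.112. With the replicate number as a block, 1 gene was called in all and 0 members, with a lowest adjusted p of 0.328 among members (limma).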

Other observations

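Rows without a symbol whose description names a list member were found after the values were seen and stand outside the list. The CMPK2 row had 13.0, 11.5 and 10.7 FPKM in the controls against 8.38, 9.52 and 17.1 FPKM under CPP-Se (log2 fold change -0.07, adjusted p = 0.929 by limma). The USP18 row had 1.56, 1.201 and 0.318 FPKM in the controls against 1.53, 1.34 and 2.16 FPKM under CPP-Se (log2 fold change 0.44, adjusted p = 0.537). The IRF7 row had 4.29, 14.9 and 11.4 FPKM in the controls against 16.0, 15.1 and 4.19 FPKM under CPP-Se (log2 fold change 0.15, adjusted p = 0.923). CPP-Se replicate 3 held the highest value of the CMPK2 and USP18 rows and the lowest of the IRF7 row. The IRF7 row is 273 bases long and rested on few reads, 8, 26 and 25 in the controls against 28, 55 and 7 under CPP-Se. Its lowest dogs, CPP-Se replicate 3 and control replicate 1, were thus hardly apart. Of 2 HERC5 rows, one was at 0 in every dog, and the other, with 28, 17 and 12 reads in the controls against 1, 41 and 3 reads under CPP-Se, was below the level tested.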
